A study of Mus musculus with 6 samples.

Results

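The 10 genes described here encode parts of the contractile actin and myosin machinery or proteins that bind its filaments: the calponins Cnn2 and Cnn3, the transgelin Tagln2, the tropomyosins Tpm1 and Tpm4, the myosin light chains Myl9 and Myl6, the nonmuscle myosin heavy chains Myh9 and Myh10, and the unconventional myosin Myo1d. They were picked from 55378 counted genes as contractile genes around Cnn2, Myl9 and Myo1d, because these were much lower in mouse blastocysts after knockdown of Eif4a3. The differences between the groups in these 10 genes are therefore given as a description, and where the text says which of them passed the threshold of a fit over all genes, nothing is read from it. Nonmuscle myosin II is a motor of paired heavy chains, each carrying an essential light chain such as MYL6 and a regulatory light chain such as MYL9, and phosphorylation of the regulatory chain switches it on. Tropomyosins run along actin filaments and set which myosins and actin-binding proteins reach them, while calponins and transgelins bind and stabilise filaments. In the preimplantation embryo this machinery drives compaction, the inward sorting of cells and cytokinesis.

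The study injected mouse zygotes with an siRNA against Eif4a3 (Eif4a3-KD) or with a negative control siRNA (NC) and collected blastocysts on day 5. The EIF4A3 protein is a DEAD-box helicase of the exon junction complex, which splicing leaves on messenger RNA upstream of each junction. Each group has 3 libraries (replicates 1 to 3), each made by Smart-seq2 from polyadenylated RNA of a pool of 5 embryos. Both groups were injected, no uninjected embryos were analysed here, and neither the strain nor the sex of the embryos is given in the labels used here. The labels do not say whether pools came from separate parents, so p-values measure only the spread between these samples.

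Summed counts ran between 16157715 and 18697761 in the Eif4a3-KD libraries and between 15607226 and 18389991 in the NC libraries. Genes with at least 1 count numbered 23501 to 24814 in the knockdown and 21922 to 22944 in NC, and mitochondrial transcripts took 1.60% to 2.74% and 1.34% to 1.92% of the counts. The target Eif4a3 had 16.03, 36.2 and 56.2 CPM (edgeR's counts scaled to the effective library size) in Eif4a3-KD replicates 1 to 3, against 302, 255 and 202 CPM in NC replicates 1 to 3. Its log2 fold change was −2.81 (standard error 0.44, adjusted p 0.00513 by edgeR's quasi-likelihood test), lower in 3 of 3 knockdown libraries. In all that follows, values of 3 libraries are in the order of their replicate number, plus-minus values are standard deviations with n = 3, and log2 fold changes are Eif4a3-KD over NC as fitted by edgeR.

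Cnn2, Myl9 and Myo1d had between 24.2 and 28.9 times less RNA in the Eif4a3-KD pools than in the NC pools. Myh9, Myh10 and Tagln2 were 3.83-fold to 4.76-fold lower and Cnn3 2.19-fold lower. Tpm1, Tpm4 and Myl6 lay nearest to equal levels, at 1.59-fold, 1.55-fold and 1.17-fold lower. In the fit over all 15619 tested genes 7 of the 10 genes passed an adjusted p of 0.05 on the lower side, as did 5.56% of all tested genes. Tpm1, Tpm4 and Myl6 did not, and edgeR called 0 of the 10 higher (0 at an unadjusted p under 0.05, and 0 by DESeq2). In 8 of the 10 genes every Eif4a3-KD library lay below every NC library, which held for 16.3% of the tested genes, and Tpm4 and Myl6 were the exceptions. The median log2 fold change of the 10 was −1.99, beside 0.03 for all tested genes. All 10 passed the filter on low counts, but Myl9 and Myo1d did so through the NC libraries, so their direction was given by that filter. A pool can hold less of an RNA because it has fewer cells of a type or less of that RNA per cell, and bulk libraries cannot tell these apart.

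**Figure D1:**
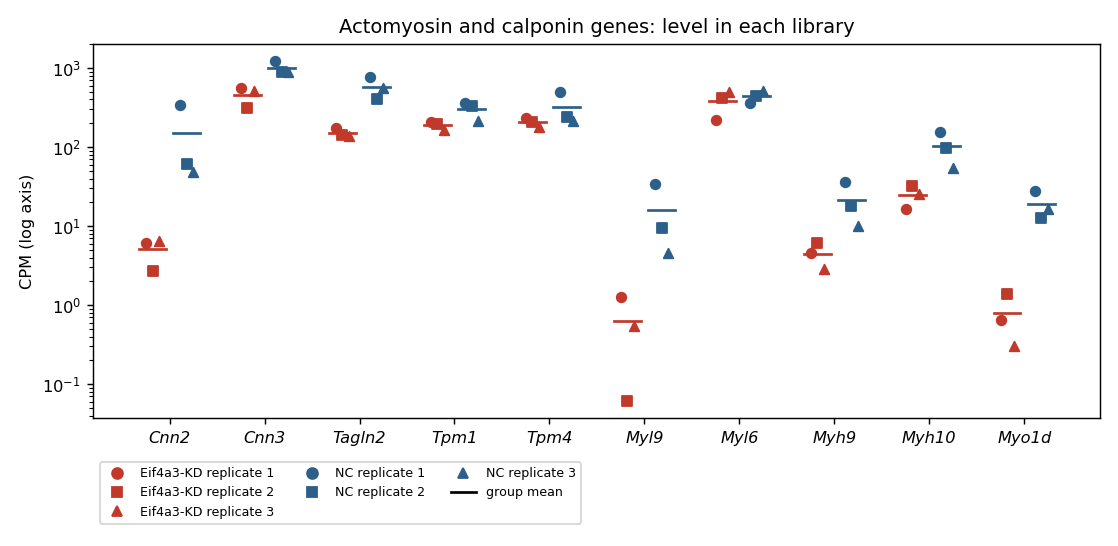
Level of each of the 10 genes in every library, in CPM on a log axis. Points are libraries (Eif4a3-KD in red at the left of each pair, NC in blue at the right; the symbol gives the replicate) and bars are group means. Cnn2, Myl9 and Myo1d stand 24.2-fold to 28.9-fold lower in the knockdown by their means, while Tpm4 and Myl6 overlap between the groups.

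Calponin 2, the product of Cnn2 (ENSMUSG00000004665, GRCm38 chr10:79988584-79996062, plus strand), holds back the actin-activated ATPase of myosin II and stabilises filaments in nonmuscle cells. It had 6.19, 2.73 and 6.56 CPM in the Eif4a3-KD libraries, against 337, 61.0 and 48.9 CPM in the NC libraries. The NC libraries themselves spread widely: replicate 1 was 6.13 times the mean of the other NC libraries, and 6.88 times the lowest. The group means were 5.16 ± 2.11 and 149 ± 163 CPM, and the log2 fold change was −4.85 (standard error 0.78). Without NC replicate 1 it was −3.42, which is a 10.7-fold difference in place of a 28.8-fold one. In counts, the 3 knockdown libraries held 286 and the 3 NC libraries 8430.

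The related Cnn3 (ENSMUSG00000053931, chr3:121426497-121458207, plus strand), which encodes the acidic calponin of nonmuscle cells, was far more abundant and differed less. It had 552, 309 and 514 CPM in the Eif4a3-KD libraries and 1228, 892 and 889 CPM in the NC libraries, with no overlap. The means were 458 ± 131 and 1003 ± 195 CPM, for a log2 fold change of −1.13 (standard error 0.33). Exons of another gene overlap 17.7% of its exon bases, so its counts are less certain than those of Cnn2, which has no such overlap. Its place on the lower side of the threshold was lost when any NC library was left out (log2 fold changes −0.97, −1.25 and −1.23 in the order of the replicates), when Eif4a3-KD replicate 2 or 3 was (−0.91 and −1.23), and with all exon lines summed (−1.15).

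Transgelin 2, encoded by Tagln2 (ENSMUSG00000026547, chr1:172500047-172507380, plus strand), is a small calponin-like protein that bundles and stabilises actin. Tagln2 had 177, 143 and 137 CPM in the Eif4a3-KD libraries, against 781, 407 and 563 CPM in the NC libraries. Every NC library held over 2 times the level of every knockdown library, and the knockdown libraries differed little among themselves, with means of 152 ± 21.4 and 584 ± 188 CPM. The log2 fold change was −1.94 (standard error 0.32) and stayed between −2.19 and −1.69 with 1 library left out.

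Both tropomyosin genes were lower by means, by amounts of the size of the spread between the NC libraries. Tpm1 (ENSMUSG00000032366, chr9:67022590-67049406, minus strand) had 206, 198 and 165 CPM in the Eif4a3-KD libraries and 358, 331 and 215 CPM in the NC libraries. The groups did not overlap, but NC replicate 3 was closer to the knockdown libraries than to the other NC libraries, and the log2 fold change was −0.67 (standard error 0.29). Tpm4 (ENSMUSG00000031799, chr8:72130174-72153142, plus strand), which gives a short tropomyosin of stress fibres, had 235, 207 and 179 CPM in the knockdown and 504, 241 and 214 CPM in NC. Eif4a3-KD replicate 1 lay above NC replicate 3. Its log2 fold change of −0.63 (standard error 0.36) was −0.15 without NC replicate 1, so that library carried most of the difference.

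Tpm1 makes many proteins from 1 gene by a choice of first exon, of 1 of a pair of internal exons and of last exon. The internal exons, called 6a and 6b here in the order of transcription, are both 76 bases long and code for the same stretch of the protein with different residues. They are shown because their use differed between the groups. Their sequences are from the GENCODE vM21 transcripts (GRCm38, minus strand, 5′ to 3′), with capitals at the 33 positions where they differ.
Tpm1 exon 6a, chr9:67032466-67032541: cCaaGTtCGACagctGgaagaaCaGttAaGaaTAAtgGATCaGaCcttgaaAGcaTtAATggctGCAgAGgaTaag
Tpm1 exon 6b, chr9:67031951-67032026: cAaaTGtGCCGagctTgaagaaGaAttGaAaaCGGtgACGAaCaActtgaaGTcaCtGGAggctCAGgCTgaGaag
The other 43 positions are the same, an identity of 56.6%.

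Exon 6b was a minor form in both groups and took a smaller share of the Tpm1 counts in the Eif4a3-KD pools. Of the counts on 6a and 6b together, 6b had 4.71% (24 of 510, 95% Wilson interval 3.18% to 6.91%), 11.9% (44 of 370, 8.98% to 15.6%) and 3.58% (12 of 335, 2.06% to 6.16%) in the Eif4a3-KD libraries. In the NC libraries 6b had 15.7% (146 of 927, 13.5% to 18.2%), 17.8% (112 of 629, 15.01% to 20.99%) and 16.7% (70 of 419, 13.4% to 20.6%). The shares averaged 6.73% ± 4.51 in the knockdown and 16.8% ± 1.03 in NC and did not overlap, although the interval of Eif4a3-KD replicate 2 overlapped those of the NC libraries. These intervals, and those below, cover counting error only, since reads copied by PCR without molecular tags are not independent molecules.

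The other choices within Tpm1 separated the groups less or not at all. The inner of the last exons (chr9:67027892-67028167) took 3.41%, 11.2% and 4.43% of the counts on inner and outer last exon in the Eif4a3-KD libraries and 10.3%, 20.4% and 12.04% in the NC libraries, and Eif4a3-KD replicate 2 lay above NC replicate 1. Replicate 2 had the highest share in each group, as it did for exon 6b. The upstream first exon 1a, which starts the long tropomyosins, took 0.593%, 5.63% and 1.89% of the first exon counts in the knockdown and 4.25%, 1.98% and 1.54% in NC, so nearly all counts of the first exons were on 1b, which starts the short forms. For Tpm4 the most upstream exon block was at 0 in all 6 libraries.

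**Figure D2:**
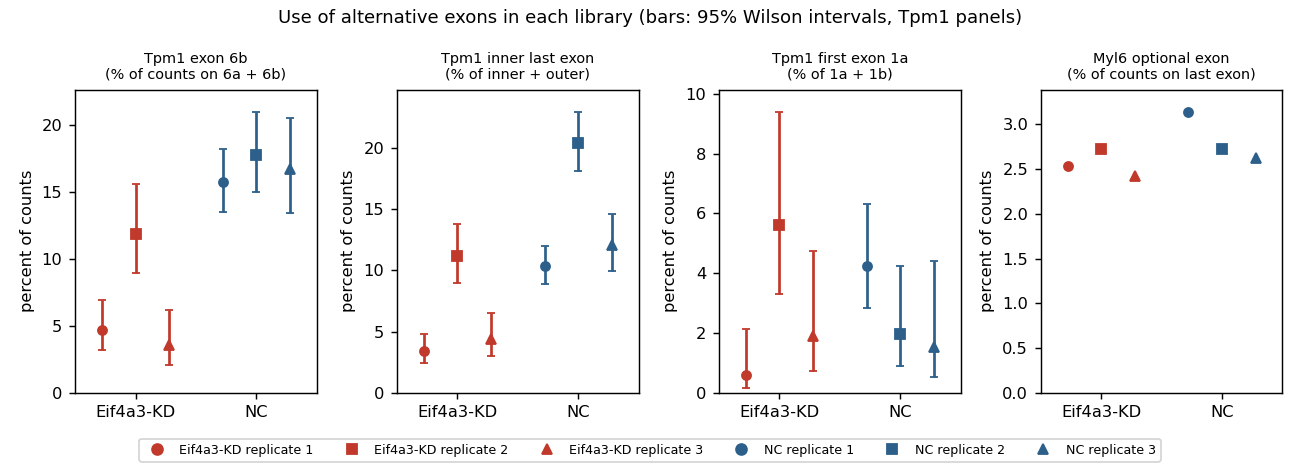
Share of counts on alternative exons in each library, in percent (Eif4a3-KD in red at the left of each panel, NC in blue at the right; the symbol gives the replicate; bars are 95% Wilson intervals, drawn for Tpm1 alone). Tpm1 exon 6b lay at 3.58% to 11.9% in the knockdown and 15.7% to 17.8% in NC, the inner last exon and first exon 1a overlapped, and the optional Myl6 exon lay between 2.42% and 3.14% in all libraries.

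Of the light chain genes described in detail, the regulatory chain gene Myl9 was much lower in the knockdown and the essential chain gene Myl6 was not. Myl9 was not the main regulatory chain gene by counts. The NC means were 251 CPM for Myl12a and 620 CPM for Myl12b, beside 16.1 CPM for Myl9. In the knockdown Myl12a and Myl12b had means of 166 and 411 CPM. Neither passed the threshold, although all their knockdown libraries lay below all NC libraries. Exons of other genes overlap both, so their counts are less certain. Myl9 (ENSMUSG00000067818, chr2:156775420-156781658, plus strand) had 1.27, 0.0606 and 0.542 CPM in the Eif4a3-KD libraries, against 34.3, 9.43 and 4.59 CPM in the NC libraries. These values rest on 27, 1 and 9 counts in the knockdown and 689, 142 and 70 counts in NC, so the knockdown level is near the limit of detection. The log2 fold change was −4.64 (standard error 0.96). It was −3.44 without NC replicate 1, which was 4.89 times the mean of the other NC libraries, and ranged from −5.76 to −3.44 with any library left out.

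Myl6 (ENSMUSG00000090841, chr10:128490860-128494145, minus strand), the essential light chain of nonmuscle and smooth muscle myosin, had 221, 421 and 494 CPM in the Eif4a3-KD libraries and 363, 447 and 519 CPM in the NC libraries. The groups overlapped and the log2 fold change was −0.23 (standard error 0.34). It was 0.0086 without Eif4a3-KD replicate 1, the lowest library, so no direction can be given. An optional Myl6 exon of 45 bases, which changes the end of the protein, had 2.53%, 2.72% and 2.42% of the counts of the last exon in the knockdown and 3.14%, 2.73% and 2.63% in NC, so the form without it prevailed in both groups.

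The nonmuscle heavy chains Myh10 and Myh9 were both lower in the Eif4a3-KD pools. Myh10 (ENSMUSG00000020900, chr11:68691559-68816632, plus strand), the heavy chain of myosin IIB, had 16.5, 32.1 and 25.5 CPM in the knockdown libraries and 156, 97.1 and 54.3 CPM in the NC libraries. The means were 24.7 ± 7.84 and 102 ± 50.9 CPM, and the log2 fold change was −2.05 (standard error 0.42), or −1.63 without NC replicate 1. Myh9 (ENSMUSG00000022443, chr15:77760587-77842175, minus strand), the heavy chain of myosin IIA, had 4.55, 6.06 and 2.83 CPM in the knockdown and 35.9, 18.1 and 9.97 CPM in NC. Its log2 fold change was −2.25 (standard error 0.52), and its place past the threshold was lost without NC replicate 1 (−1.66), NC replicate 2 (−2.41) or Eif4a3-KD replicate 3 (−2.02).

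Myo1d (ENSMUSG00000035441, chr11:80482126-80780025, minus strand) encodes a single-headed class I myosin that links membranes to actin and acts in left-right asymmetry in flies and vertebrates. It had 0.656, 1.39 and 0.301 CPM in the Eif4a3-KD libraries, against 27.9, 12.7 and 16.3 CPM in the NC libraries. The knockdown values rest on 14, 23 and 5 counts and the NC values on 560, 191 and 248. The log2 fold change was −4.59 (standard error 0.60) and moved least of the 3 strongest genes when NC replicate 1 was left out, to −4.22.

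**Figure D3:**
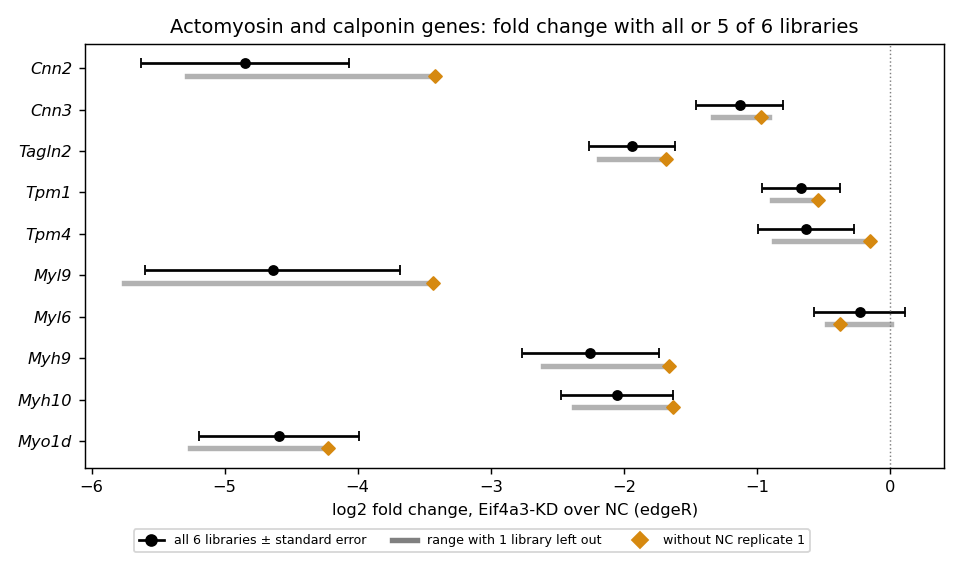
Fitted log2 fold change of each gene, Eif4a3-KD over NC. Black points with bars are the fit to all 6 libraries with its standard error, grey bars span the fits with 1 library left out, and orange diamonds are the fits without NC replicate 1. Cnn2 and Myl9 lay at −3.42 and −3.44 without that library, Tpm4 at −0.15, and the range of Myl6 reached 0.0086.

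NC replicate 1 was the highest NC library for 9 of the 10 genes, all but Myl6, where NC replicate 3 was highest. NC replicate 1 was the highest NC library for 38.9% of all tested genes. Its excess over the mean of the other NC libraries was 6.13-fold for Cnn2, 4.89-fold for Myl9, 2.55-fold for Myh9, 2.22-fold for Tpm4 and 2.06-fold for Myh10, and between 1.31-fold and 1.92-fold for Tpm1, Cnn3, Tagln2 and Myo1d. All 9 stayed lower in the knockdown without this library. On the log2 scale the values without it lay between −4.22 for Myo1d and −0.15 for Tpm4.

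Levels of different genes can be compared per length of exon only roughly. Each block is counted by its most counted line but enters with its full merged length, and a read pair counts in every block it touches. Long merged blocks, such as those of 2092 bases in Tpm4 and 2479 bases in Myh9, can therefore lower the value, and many short blocks can raise it. In NC, Cnn3 and Tagln2 stood highest, at 330.2 ± 64.1 and 280.4 ± 90.4 CPM per kilobase of merged exon, and their libraries overlapped. Tpm4 at 74.9 ± 37.6, Cnn2 at 60.5 ± 66.1 and Tpm1 at 46.5 ± 11.7 CPM per kilobase came next and could not be ordered beyond their spread. Without NC replicate 1 they averaged 53.3 for Tpm4, 22.3 for Cnn2 and 42.1 for Tpm1, so the place of Cnn2 beside the tropomyosins rests on that library. Myl9 at 13.9 ± 13.7 and Myh10 at 9.79 ± 4.87 overlapped each other, as did Myo1d at 2.93 ± 1.23 and Myh9 at 1.65 ± 1.02. In the knockdown the same scale gave 151 for Cnn3, 73.2 for Tagln2, 48.4 for Tpm4, 29.2 for Tpm1, 2.36 for Myh10, 2.10 for Cnn2, 0.536 for Myl9, 0.346 for Myh9 and 0.121 for Myo1d. Myl6 is left out of this order because a line with a retained intron covers most of its main block of 3041 bases and counts each read pair once.

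The lower levels of Cnn2, Cnn3, Tagln2 and Myl9 ran along the whole gene. Overlapping exons of a gene were merged into blocks, and in Cnn2 all 7 blocks lay below NC in every knockdown library, by 27.1-fold to 30.3-fold in their means. The 6 blocks of Cnn3 and the 4 of Tagln2 with at least 100 counts in all were also lower without overlap, by 1.87-fold to 2.43-fold and 2.98-fold to 4.09-fold, as were the 3 such blocks of Myl9, by 19.7-fold to 29.8-fold. In Myh10 this held for 8 of 9 blocks, by 2.27-fold to 6.73-fold over the 9. In Myh9 the 20 blocks nearest the 5′ end held 2.87 ± 0.775 CPM in the knockdown and 10.5 ± 5.36 CPM in NC (3.64-fold lower), and the 21 nearest the 3′ end 1.60 ± 1.09 and 10.9 ± 7.87 CPM (6.77-fold lower). The last block alone held 1.54 CPM in the knockdown and 5.47 CPM in NC, and the other 3′ blocks were near 0 in the knockdown. Only 3 Myh9 blocks had at least 100 counts, by means 2.36-fold to 4.84-fold lower, so a difference between the ends cannot be read from these values. For Tpm1 6 of 10 blocks and for Tpm4 1 of 8 lay below NC in every library.

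**Figure D4:**
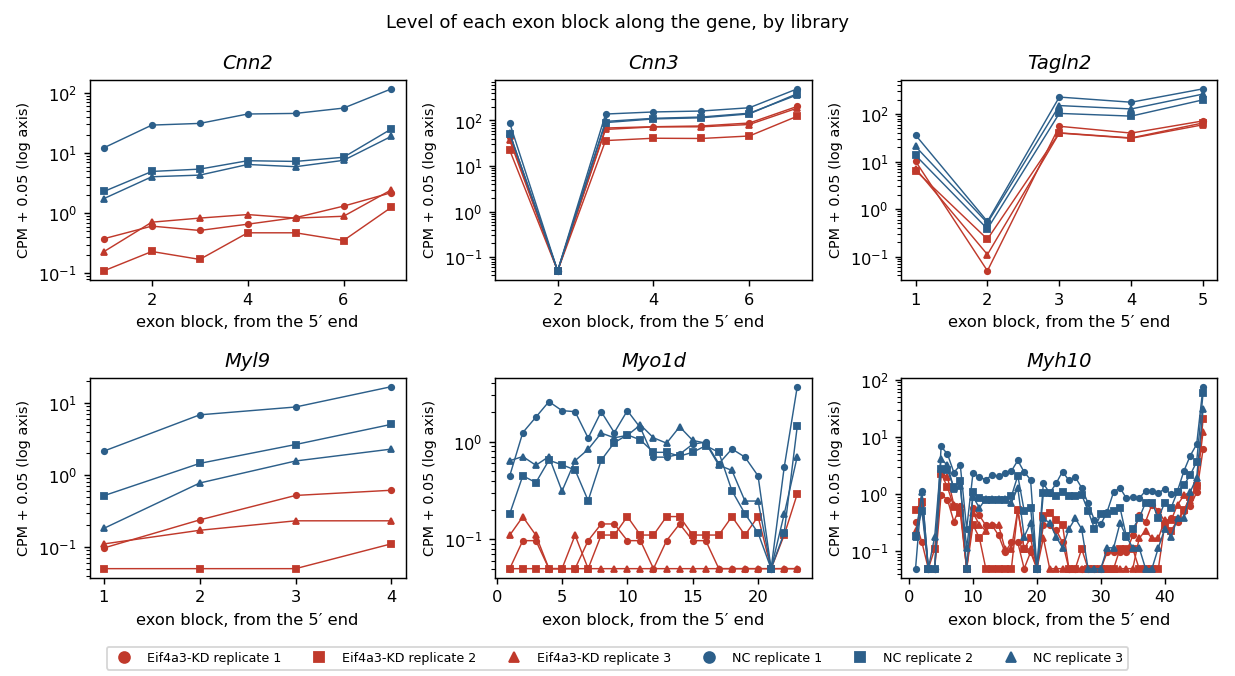
Level of each merged exon block from the 5′ end to the 3′ end of 6 genes, in CPM + 0.05 on a log axis. Lines are libraries (Eif4a3-KD in red, NC in blue; the symbol gives the replicate). In Cnn2 all 7 blocks and in Myl9 the 3 blocks with at least 100 counts lay lower in every knockdown library, and in both genes NC replicate 1 lay above the other NC libraries.

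Serum response factor (SRF) and its actin-sensing partners bind the CArG box, a short AT-rich element in front of many contractile genes, and TEAD factors of the Hippo pathway bind CATTCC. Promoters of 9 of the 10 genes could be matched to RefSeq (GRCm38.p6), with 10 windows of 250 bases before a start site. A CArG box on either strand was found in 3 of these windows, those of Cnn2, Myl9 and the second start of Myl6, and in 1.47% of all 32851 windows of that length (482). CATTCC on either strand was found in 3 windows, those of Myh10, Tagln2 and the 1a start of Tpm1, and in 12.6% of all windows (4153). None of the 10 windows lay before first exon 1b of Tpm1, which held nearly all of its first exon counts. No match of the motifs overlapped another. The stretches around the boxes of Cnn2 and Myl9, the strongest calponin and light chain differences, are shown with the box in capitals (RefSeq, GRCm38.p6, plus strand).
Cnn2, chr10:79988484-79988583: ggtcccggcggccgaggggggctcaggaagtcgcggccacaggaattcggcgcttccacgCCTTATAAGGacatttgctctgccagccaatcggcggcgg
Myl9, chr2:156775243-156775342: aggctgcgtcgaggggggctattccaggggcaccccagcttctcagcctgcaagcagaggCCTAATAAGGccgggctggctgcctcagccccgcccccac
Myl6, which also has a box in front of its second start, was among the genes that differed least. The matches describe these letters in these windows and say nothing of binding in the embryos.

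The genes whose profile over the 6 libraries was most like those of Cnn2, Myl9 and Myo1d were found among 6847 genes with a mean of at least 10 CPM, by the root mean square difference of log2(CPM + 1) after centring each gene. For Myo1d they were the tubulin gene Tubb5 (difference 0.23), Agpat4 (0.28) and Sfmbt2 (0.33). For Myl9 they were the calcium channel subunit gene Cacnb3 (0.40), the class I myosin gene Myo1c (0.43) and the kinase gene Akt1 (0.45). For Cnn2 the likest genes included the cyclin gene Ccnd3 (0.74) and the DNA methyltransferase gene Dnmt3b (0.75). These differences cannot be set against those for Myl9 and Myo1d. In the knockdown Myl9 and Myo1d lay near or below 1 CPM, where adding 1 before the logarithm shrinks a fall. Myo1c thus came out like Myl9 although their log2 fold changes were −2.81 and −4.64.

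Other genes of the actin cytoskeleton were taken in 6 lists. These lists were chosen with earlier results of these data known, so their shares of calls are given as a description. Of their 135 genes 124 were tested, 32 were lower in the Eif4a3-KD pools (25.8%) and 1 was higher, where 5.56% of all tested genes were lower and 7.52% higher. Of these 33 calls 10 held whichever library was left out, among them Myo1c, Myo1e, Ppp1cb, Wdr1, Flna, Vcl, Zyx, Lima1 and Lcp1. Fits that left out 1 library called 33, 16 and 14 of the list genes when it was Eif4a3-KD replicate 1, 2 or 3, and 12, 17 and 21 when it was NC replicate 1, 2 or 3.

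Proteins that crosslink actin or tie it to adhesion sites gave the most calls, with 13 of 26 lower and 13 not past the threshold. By edgeR 0 were higher (0 at an unadjusted p under 0.05, 0 by DESeq2), and the median log2 fold change was −1.21. The bundling protein gene Lcp1 had 20.7, 34.3 and 8.31 CPM in the Eif4a3-KD libraries and 353, 110.2 and 149 CPM in the NC libraries (−3.27, standard error 0.58, edgeR adjusted p 0.00804). The zyxin gene Zyx had 10.1, 14.8 and 3.49 CPM in the knockdown and 126, 53.4 and 54.01 CPM in NC (−3.04, edgeR adjusted p 0.0084), with 38.6% of its exon bases overlapped by another gene. Vcl, which encodes vinculin of adhesion sites, was lower by −2.23 on the log2 scale (edgeR adjusted p 0.00581, 25.5% overlapped), and the filamin gene Flna by −2.77 (edgeR adjusted p 0.00914). Both were lower in 3 of 3 knockdown libraries without overlap. Further lower genes were Actn4, Tln1, Tln2, Lima1, Pdlim5, Iqgap1, Septin9, which passed the low-count filter through the NC libraries, and Ilk, whose exon bases are all overlapped by another gene. Leaving out 1 library never ended the call of Lima1, but ended that of Ilk in 1 of the 6 fits and that of Actn4 in 4. The calls of Tln1, Tln2, Pdlim5, Iqgap1 and Septin9 were each lost in 5 of the 6. With 1 library left out 6 to 12 genes of this list were called lower, the fewest without NC replicate 1.

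Among actins and factors of filament turnover 9 of 39 were lower and 30 did not pass, with a median of −0.83. By edgeR 0 were higher (1 at an unadjusted p under 0.05, 1 by DESeq2). Actb, the main cytoplasmic actin gene, had 2635, 3523 and 2543 CPM in the Eif4a3-KD libraries and 11038, 6229 and 7706 CPM in the NC libraries. Its log2 fold change was −1.52 (standard error 0.35, edgeR adjusted p 0.021, lower in 3 of 3 libraries), and leaving out NC replicate 1, NC replicate 3 or Eif4a3-KD replicate 3 ended the call, with an adjusted p of at most 0.0624. Actg1, the other cytoplasmic actin gene, had −1.51 (edgeR adjusted p 0.0178, lower in 3 of 3 libraries), with 68.2% of its exon bases overlapped and the call lost without NC replicate 1 or Eif4a3-KD replicates 2 or 3 (at most 0.0669). Wdr1, a cofactor of cofilin in filament disassembly, had −2.65 (standard error 0.44, edgeR adjusted p 0.00607, lower in 3 of 3 libraries). Dstn, Actr2, Actr3, Tmsb10, Coro1b (47.3% overlapped) and Coro1c were also lower. Leaving out any 1 library ended the call of Dstn. The calls of Actr2, Tmsb10 and Coro1b were lost in 5 of the 6 such fits, that of Coro1c in 3 and that of Actr3 in 2, and with RLE scaling Tmsb10 also missed the threshold. The list had 8, 3 and 3 lower genes when Eif4a3-KD replicate 1, 2 or 3 was left out, and 3, 4 and 5 when NC replicate 1, 2 or 3 was. Cytoplasmic actin genes have near-identical processed copies in the genome, so the split of their reads is uncertain.

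Other myosin heavy chains gave 6 lower genes of 18 tested, 12 that did not pass and a median of −0.82. By edgeR 0 were higher (1 at an unadjusted p under 0.05, 0 by DESeq2). The class I myosins Myo1e and Myo1c had log2 fold changes of −2.87 and −2.81 (standard errors 0.46 and 0.48, edgeR adjusted p 0.00536 and 0.00674), each lower in 3 of 3 libraries. Myo1e had 2.48, 2.18 and 2.17 CPM in the Eif4a3-KD libraries against 26.4, 13.02 and 10.6 CPM in the NC libraries. Myh14, the third nonmuscle myosin II heavy chain, passed the low-count filter through the NC libraries, so it could be called in the lower direction alone. It had 0.375, 0.303 and 0.542 CPM in the knockdown and 5.57, 2.46 and 0.853 CPM in NC (−2.85, edgeR adjusted p 0.0368). That call was lost in 5 of the 6 fits with 1 library left out (adjusted p of at most 0.167) and held without NC replicate 3 alone. Myo5b and Myo9b were lower too, but with 1 library left out their calls were lost in 2 and 5 of the 6 fits. With 1 library left out 2 to 6 genes of this list were called lower, the fewest without NC replicate 1.

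Of 23 tested light chains and regulators of myosin 4 were lower and 19 did not pass, with a median of −0.59. By edgeR 0 were higher (0 at an unadjusted p under 0.05, 0 by DESeq2). Ppp1cb, the catalytic subunit of myosin phosphatase, had 20.3, 34.8 and 33.5 CPM in the Eif4a3-KD libraries and 89.1, 74.5 and 77.4 CPM in the NC libraries (−1.44, edgeR adjusted p 0.0148, 39.8% overlapped). Rock2, which encodes a kinase that activates myosin II, had −1.32 (edgeR adjusted p 0.0479), and no fit with 1 library left out kept the call (adjusted p 0.0517 to 0.134). Arhgef1 and Racgap1 were also lower, calls that each were lost in 4 of the 6 such fits. The regulatory light chains Myl12a and Myl12b, which share the role of Myl9, had −0.60 and −0.59 (edgeR adjusted p 0.193 and 0.218), and 42.9% and 78.8% of their exon bases are overlapped. These neighbours are near-identical copies, so their reads may be split between them. The GTPase gene Rhoa (−0.03, edgeR adjusted p 0.951, 89.4% overlapped) and the kinase gene Rock1 (−0.52, 0.226) did not pass.

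The relatives of the calponins, transgelin and tropomyosins held the 1 higher gene. Tpm2, a tropomyosin gene best known from muscle, had 27.7, 30.7 and 40.3 CPM in the Eif4a3-KD libraries, against 9.55, 14.3 and 6.69 CPM in the NC libraries. Its log2 fold change was 1.69 (standard error 0.37, edgeR adjusted p 0.0168, higher in 3 of 3 libraries), and leaving out NC replicate 1, NC replicate 3 or Eif4a3-KD replicate 3 ended the call (adjusted p of at most 0.0606). Tpm3 had 199, 102 and 115 CPM in the knockdown and 445, 256 and 164 CPM in NC (−1.06, edgeR adjusted p 0.113). Of the 5 genes tested edgeR called 0 lower (2 at an unadjusted p under 0.05, 0 by DESeq2), and the median was −0.88. The smooth muscle genes Cnn1 and Tagln, untested for low counts, stayed under 1 CPM in every library.

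Of 13 tested genes for SRF, its partners and their immediate targets edgeR called 0 higher and 0 lower (0 and 2 at an unadjusted p under 0.05, 0 and 0 by DESeq2), with a median of −0.34. Srf itself had 4.83, 4.91 and 1.81 CPM in the Eif4a3-KD libraries and 12.8, 2.66 and 1.57 CPM in the NC libraries, where replicate 1 stood highest. Its log2 fold change of −0.57 (edgeR adjusted p 0.653) was 0.86 without that library. The partner genes Mrtfa and Mrtfb had −1.03 and −0.59 (edgeR adjusted p 0.158 and 0.293).

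**Figure D5:**
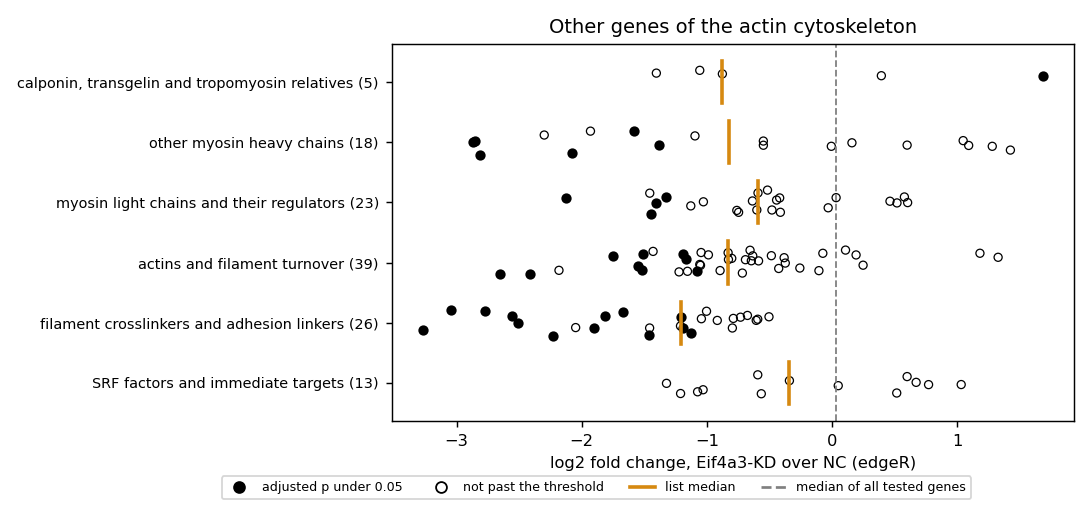
Log2 fold change, Eif4a3-KD over NC, of every tested gene in 6 lists of the actin cytoskeleton, with the number tested in brackets. Filled points passed an adjusted p of 0.05, open points did not, orange bars are list medians and the dashed line is the median of all tested genes (0.03). The medians lay between −1.21 for crosslinkers and adhesion linkers and −0.34 for SRF factors and targets, and Tpm2 is the filled point on the right.

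Some markers of the blastocyst lineages were lower in the knockdown as well, and their part in the results was not tested. The 6 trophectoderm markers summed to 2128, 1044 and 479 CPM in the Eif4a3-KD libraries and 5546, 4245 and 2103 CPM in the NC libraries, so NC replicate 1, the highest for 9 of the 10 genes, was highest here as well. These sums overlapped, as Eif4a3-KD replicate 1 lay above NC replicate 3. By edgeR 3 of 6 were lower, Eomes (−2.77, adjusted p 0.00629), Gata3 (−2.51, 0.0216) and Krt18 (−1.97, 0.0332), each lower in 3 of 3 libraries. The Gata3 and Krt18 calls were lost in 3 and 4 of the 6 fits with 1 library left out (adjusted p of at most 0.0816 and 0.109). The 4 epiblast markers summed to 117 to 158 CPM in the knockdown and 223 to 280 CPM in NC, with Sox2 lower. For them NC replicate 1 was the lowest NC library (223, 239 and 280 CPM), unlike for the trophectoderm markers. The 4 primitive endoderm markers summed to 54.2 to 71.4 CPM in the knockdown and 75.9 to 84.7 CPM in NC, but most of this is Gata6 (67.9, 52.3 and 54.6 CPM in the knockdown and 61.2, 68.1 and 61.2 CPM in NC). Pdgfra was lower, at 0.0469, 0.909 and 0.542 CPM in the knockdown and 6.32, 14.01 and 13.2 CPM in NC. Sox2 and Pdgfra passed the low-count filter through the NC libraries, so both could be called in the lower direction alone.

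Markers of cells outside the embryo were also counted, and their part in the results was not tested. The 19 muscle markers summed to 858 to 2062 CPM in the knockdown and 419 to 797 CPM in NC, most of it the striated muscle genes Mylpf and Actn2. Among its smooth muscle genes Smtn had 3.70, 4.42 and 1.75 CPM in the Eif4a3-KD libraries and 13.6, 12.9 and 4.66 CPM in the NC libraries (log2 fold change −1.66, edgeR adjusted p 0.0669, lower in 3 of 3 libraries). Actg2 reached 0.843 CPM in the knockdown and 1.49 CPM in NC, and Acta2, Myh11 and Synpo2 stayed under 1 CPM in all libraries. Fibroblast markers summed to 1.81 to 10.8 CPM in the knockdown and 1.99 to 13.1 CPM in NC, with Fap at 0 throughout. Cumulus and granulosa markers summed to 16.9 to 29.4 CPM in the knockdown and 4.18 to 16.1 CPM in NC, nearly all of it Amhr2, with Amh, Cyp19a1, Fshr and Has2 at 0. Blood markers summed to 3.65, 5.33 and 6.26 CPM in the knockdown and 21.9, 48.5 and 7.22 CPM in NC. In NC replicate 2 the sum was above the levels of Myl9, Myo1d and Myh9 (9.43, 12.7 and 18.1 CPM). It was below them in NC replicate 1, where these genes were highest (34.3, 27.9 and 35.9 CPM). In NC replicate 3 it lay above Myl9 (4.59 CPM) and below Myo1d and Myh9 (16.3 and 9.97 CPM). The beta-globin genes Hbb-bs and Hbb-bt were lower by edgeR, but passed the low-count filter through the NC libraries and could be called in that direction alone.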

How the data were processed

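The authors' deposited table holds raw counts of read pairs per annotated exon, per the file headers made with featureCounts 2.0.1 (GENCODE vM29 moved to GRCm38, each pair counted in every exon it overlaps, strand setting 2). The submitters' processing notes name FastQC 0.11.9, fastp 0.20.1, STAR 2.7.6a, R 4.1.1 and DESeq2 1.34.0. Smart-seq2 does not mark strand, so pairs of the other orientation are missing, and genes overlapping another cannot be told from it.

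The tests had assumed counts per gene. The 842173 lines (449500 distinct exons) were merged where exons of a gene overlap into 291424 blocks, the most counted line of each was kept and blocks were summed over 55378 genes (55102 matched to a symbol). A pair across a junction counts in more than 1 block. Genes were compared with edgeR 4.0.16 under R 4.3.3 (filterByExpr, TMM, quasi-likelihood, two-sided, Benjamini-Hochberg over 15619 genes, threshold 0.05), unpaired, checked on simulated counts. DESeq2 1.42.0, other scalings, filters and gene values, a replicate block and leaving out each library were alternatives. Depth was 15607226 to 18697761 summed counts per library. Gene coordinates are those of the counted exons.

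The genes, lists and tests were chosen with earlier results of these data known. Named were the 10 genes, 16 fixed relatives and, from each list, up to 5 genes of smallest unadjusted p. The other called genes, the markers and Lima1 were named after their values were seen. A few genes that this rule would name are not reported here.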

Additional observations from a re-analysis of the deposited data

How the results depend on the processing

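All 10 genes kept their direction under every alternative run except Myl6, which had log2 fold changes from −0.47 to 0.0086 with 1 library left out (the highest without Eif4a3-KD replicate 1). With 1 library left out the genes called lower among the 10 numbered 5 to 7, the list genes called 12 to 33, and all genes called 550 to 1223 higher and 336 to 1131 lower, beside 7, 33, 1174 and 869 with all libraries. The counts of higher and lower genes were 1893 and 1407 with DESeq2 and 2089 and 1518 without a filter on low counts, and 495 were lower with all exon lines summed. The cause was not tested. Rhoa reversed with the filter of 5 CPM (0.031), the most counted block (0.018) and without Eif4a3-KD replicate 2 (range −0.14 to 0.045 with 1 library left out), and Srf without NC replicate 1 (range −1.03 to 0.86). Myl9 lost its call with all exon lines summed (−4.66), was not tested under the filter of 5 CPM, and Myo1d was not tested with the most counted block. Whether the replicate numbers pair the samples could not be decided, since deviations were taken from means of only 3 libraries per group. Those of same-numbered libraries correlated at 0.27, 0.0026 and 0.10, and those of different numbers at −0.23 to 0.19. Eif4a3-KD replicate 3 correlated better with NC replicate 2 (0.19) than with its own number. With the replicate number as a block 1332 genes were higher and 1198 lower, 7 of the 10 genes were lower and 42 list genes were called; beside Mylpf and Tpm3, which passed, and Myh14, which did not, it changed no other named call. Of the other named genes 62 of their alternative fits lost a call and 9 gained one. Depth limits Myl9 and Myo1d, with 37 and 42 counts over the Eif4a3-KD libraries.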

Other observations

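Some genes of striated muscle were counted in these embryos, and Mylpf, Actn2 and Ttn had higher mean levels in the knockdown. Mylpf, which encodes the regulatory light chain of fast skeletal muscle myosin, had 676, 816 and 1486 CPM in the Eif4a3-KD libraries and 327, 542 and 648 CPM in the NC libraries, more than Myl9 in every library (log2 fold change 0.97, edgeR adjusted p 0.123, or 0.0228 with the replicate number as a block). Actn2, the sarcomeric alpha-actinin gene, had 118, 173 and 526 CPM in the knockdown and 53.3, 156 and 117 CPM in NC (1.33, edgeR adjusted p 0.143). Ttn, which encodes the giant spring protein titin, was higher, at 5.95, 10.96 and 10.05 CPM in the knockdown and 1.09, 2.12 and 1.38 CPM in NC (2.55, standard error 0.48, edgeR adjusted p 0.01, higher in 3 of 3 libraries). The 19 muscle markers summed to 858 to 2062 CPM in the knockdown and 419 to 797 CPM in NC, nearly all from Mylpf and Actn2, while Myl1 stayed under 1 CPM. Of the 12 tested, 1 was higher by edgeR (8.33%, near the 7.52% of all tested genes) and 0 were lower (5.56% of all tested genes). The higher and lower numbered 5 and 1 at an unadjusted p under 0.05, and 3 and 1 by DESeq2. Log2 fold changes were below 0 for 5 of the 12. Among the untested striated muscle genes Acta1 had 0.141, 0.424 and 0 CPM in the knockdown and 0.448, 0.598 and 1.57 CPM in NC. Actc1 was at 0 in the knockdown and had 2.93, 0 and 0 CPM in NC.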
